A study of Mus musculus with 47 samples.

Results

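H3K27me3, the trimethyl mark on lysine 27 of histone H3, was compared between female livers of control and E1/E2-KO mice, using the regions that the authors called in each group. All autosomal regions of both lists were taken. These were 17188 regions in control against 14554 in E1/E2-KO liver, of 498569 regions and peaks in the 12 lists of the series. A control region that no E1/E2-KO region overlaps by at least 1 bp is called lost, and an E1/E2-KO region that no control region overlaps is called gained. The other regions of either list are called kept.

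The series holds 47 ChIP-seq samples, covering H3K27me3, H3K27ac and H3K4me1 in livers of both sexes and genotypes. Control females were floxed littermates (Ezh2 f/f), for which the labels name no Ezh1 deletion and no Cre. E1/E2-KO females (Ezh1-/-, EZH2f/f, AC+) lacked Ezh1 in all cells and lost Ezh2 where the albumin promoter drives Cre (Alb-Cre, AC), that is in hepatocytes. Both groups were 7 weeks old and carried the floxed Ezh2 alleles. Effects of the Ezh1 deletion, of the Ezh2 deletion and of the Cre transgene cannot be told apart in this comparison. Endothelial cells, macrophages, stellate cells and other nonparenchymal cells of E1/E2-KO liver still carried intact Ezh2. Chromatin came from whole frozen liver, 4 livers in each group, and the authors pooled the reads of the 4 livers before they called regions. There is therefore 1 list for each group, with no score, no read depth and no replicate. For this reason no test was made and no SD is given. Intervals of shares are 95% Wilson intervals that cover counting error only. In whole liver, fewer cells that carry the mark and less mark in each cell cannot be told apart. The lists also say nothing about how strong a region was, and the deletions themselves cannot be checked from them.

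Ezh1 and Ezh2 are the alternative catalytic subunits of polycomb repressive complex-2 (PRC2), whose other core members are Eed and Suz12. The complex places H3K27me3 over genes that a cell keeps silent, including the Hox genes and other regulators of embryonic patterning, and over genes that belong to other cell types. Broad regions of the mark often start from CpG-rich gene starts. Acetylation of the same lysine (H3K27ac) marks active promoters and enhancers, and a lysine cannot carry both marks at the same time.

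Gene starts of 3 kinds are shown here with the 250 bases before and the 50 bases from the annotated start on, in the NCBIM37 (mm9) genome, with both letters of each CG dinucleotide in capitals. Tle3 was the longest gene with complete coverage in control but none in E1/E2-KO liver, Elovl2 the longest gene with the opposite pattern, and Hoxa3 and Pax5 the longest Hox gene and the longest listed developmental factor that were covered completely in both lists.
Tle3, chr9:61219940-61220239, plus strand: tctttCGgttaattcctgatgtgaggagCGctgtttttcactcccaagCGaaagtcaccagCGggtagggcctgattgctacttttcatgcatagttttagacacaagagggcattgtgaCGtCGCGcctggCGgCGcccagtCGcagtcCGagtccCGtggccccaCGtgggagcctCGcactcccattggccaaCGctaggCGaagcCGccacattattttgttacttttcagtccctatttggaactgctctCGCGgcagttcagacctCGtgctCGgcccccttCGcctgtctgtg
Elovl2, chr13:41315725-41316024, minus strand: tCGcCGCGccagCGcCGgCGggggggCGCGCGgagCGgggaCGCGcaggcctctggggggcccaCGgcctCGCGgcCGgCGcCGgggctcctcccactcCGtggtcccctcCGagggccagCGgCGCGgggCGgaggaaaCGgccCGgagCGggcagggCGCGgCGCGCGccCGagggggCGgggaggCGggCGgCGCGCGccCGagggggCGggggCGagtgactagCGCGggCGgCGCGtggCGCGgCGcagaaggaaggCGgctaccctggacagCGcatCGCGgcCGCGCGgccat
Hoxa3, chr6:52163289-52163588, minus strand: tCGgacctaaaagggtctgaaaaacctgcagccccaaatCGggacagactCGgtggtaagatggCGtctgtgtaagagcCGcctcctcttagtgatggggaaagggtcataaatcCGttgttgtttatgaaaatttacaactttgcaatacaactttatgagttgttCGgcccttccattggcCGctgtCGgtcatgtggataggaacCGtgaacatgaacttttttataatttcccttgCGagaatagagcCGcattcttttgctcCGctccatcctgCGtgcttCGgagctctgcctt
Pax5, chr4:44724269-44724568, minus strand: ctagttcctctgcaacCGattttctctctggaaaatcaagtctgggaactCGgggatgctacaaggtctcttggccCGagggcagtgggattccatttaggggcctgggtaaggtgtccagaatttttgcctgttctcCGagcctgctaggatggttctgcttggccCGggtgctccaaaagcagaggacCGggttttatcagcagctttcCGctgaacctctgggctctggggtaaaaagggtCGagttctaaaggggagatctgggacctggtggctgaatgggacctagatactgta
Over all 21281 autosomal protein-coding gene starts, the median number of CG in a window of this length was 12. The Elovl2 window held 57, and 0.221% of all starts held at least as many. The Tle3 window held 22 (28.9% of all starts), the Hoxa3 window 15 (44.3%) and the Pax5 window 8 (59.7%). Both starts at which coverage differed held more CG than those of Hoxa3 and Pax5, but these are single genes picked as extremes. Over all starts, 35.3% of those in both lists were CpG-rich, against 34.1% in control regions only and 39.8% in E1/E2-KO regions only. CpG-rich starts are defined, and the classes of all starts compared, further on.

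Most H3K27me3 regions of control female liver were still called after loss of Ezh1 and Ezh2. Of the 17188 control regions 4572 were lost (26.6%, interval 25.9 to 27.3%), which is the share over all control regions. In the other direction 2846 of the 14554 E1/E2-KO regions were gained (19.6%, interval 18.9 to 20.2%). The E1/E2-KO list thus held fewer regions, but they were wider, with a median width of 30800 bp against 24000 bp in control liver. Summed length was nearly equal, with 630.1 Mb in control against 633.0 Mb in E1/E2-KO liver, which is 25.5% and 25.6% of the autosomes.

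At the level of bases, 468.3 Mb lay inside regions of both lists, or 74.3% of the control bases. The remaining 161.9 Mb of control bases (25.7%) lay outside E1/E2-KO regions. Of these, 88.1 Mb were in lost regions and 73.8 Mb had been trimmed from kept regions. Conversely, 164.7 Mb of the E1/E2-KO bases (26.02%) were outside control regions, with 74.7 Mb in gained regions and 90.03 Mb added to kept ones. Loss and gain were therefore of similar size in bases, although more regions were lost than gained.

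Lists of the same genotype from the other sex give a yardstick for these shares. Of the control female regions 10.5% (1806 regions) had no overlap in the control male list, against the 26.6% without overlap in E1/E2-KO female liver. Of the E1/E2-KO female regions 11.9% (1731 regions) had none in the E1/E2-KO male list, against 19.6% for the control female list. The control male and E1/E2-KO male lists are longer, with 765.3 Mb and 749.7 Mb, which makes overlap with them easier. Against the opposite genotype in males, at similar list lengths, 18.5% of the control female regions had no overlap in E1/E2-KO males and 15.3% of the E1/E2-KO female regions had none in control males.

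Lost regions were narrow. Their median width was 17200 bp, against 28800 bp for kept control regions. Of the control regions under 10 kb 55.1% were lost (504 of 914), and of those of 10 to 20 kb 44.2% (2439 of 5514). The share was 27.3% at 20 to 30 kb, 11.4% at 30 to 50 kb and 3.73% at 50 to 100 kb. Only 11 of the 949 control regions of 100 kb or more were lost (1.16%, interval 0.648 to 2.06%).

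Gained regions were narrow to intermediate. Their median width was 24800 bp, against 33600 bp for kept E1/E2-KO regions. The gained share was highest at 20 to 30 kb, with 29.7% (1142 of 3847), and was 22.3% under 10 kb, 27.1% at 10 to 20 kb, 19.3% at 30 to 50 kb and 3.96% at 50 to 100 kb. None of the 1022 E1/E2-KO regions of 100 kb or more was gained (upper limit 0.374%). Under 20 kb the lost share was above the gained share, while at 30 to 50 kb it was below it. Lost shares are classed by control width and gained shares by E1/E2-KO width. Since E1/E2-KO regions were wider, the classes of the lists are not alike.

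**Figure D1:**
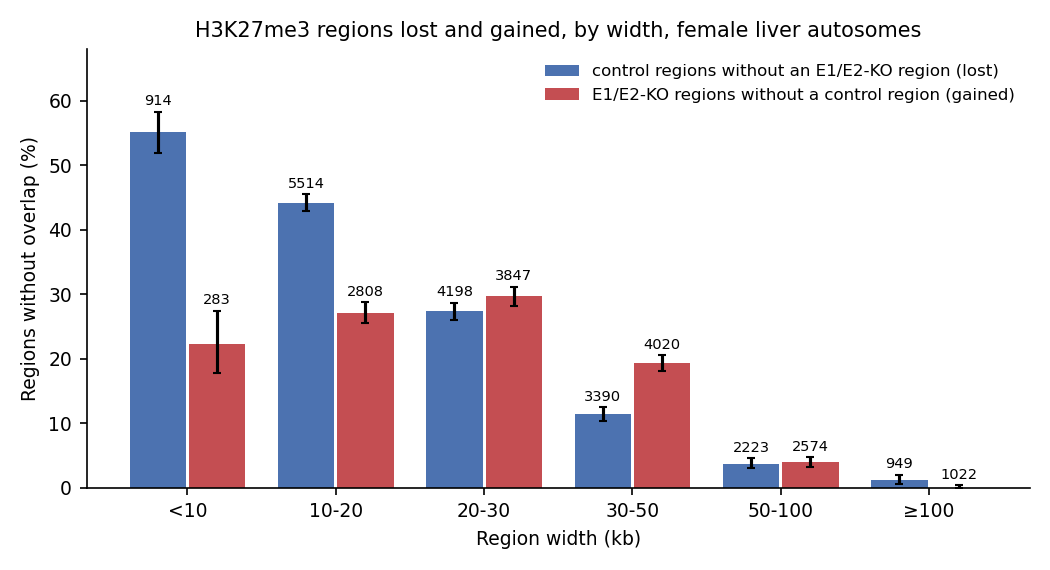
Percent of control female regions without an overlapping E1/E2-KO region (lost, blue) and of E1/E2-KO female regions without an overlapping control region (gained, red), by region width in kb. Error bars are 95% Wilson intervals, and the number above each bar is the number of regions in the class. Lost shares drop from 55.1% under 10 kb to 1.16% at 100 kb or more.

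Most kept control regions were trimmed, usually by a small part. The median kept region had 96.1% of its bases inside E1/E2-KO regions, 4919 of 12616 (39.0%) lay inside them completely, 7723 (61.2%) had 90% or more of their bases inside, and 1065 (8.44%) had under 50% of their bases left. Trimming took place mainly at the ends. Of the trimmed pieces 8394 touched an end of a region and held 81.7% of the trimmed bases, while 1777 pieces opened a gap inside a region. The median trimmed piece was 4000 bp long in both places.

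Joining of neighbouring regions was more frequent than splitting. Overlapping regions fell into 7078 pairs of 1 control and 1 E1/E2-KO region, 741 control regions that split into 1621 E1/E2-KO regions, and 3070 control regions that were joined in 1372 E1/E2-KO regions. A further 692 groups linked 1727 control regions with 1637 E1/E2-KO regions. In the split groups the covered length was 75.4 Mb in control against 69.2 Mb in E1/E2-KO liver. In the joined groups it was 108.3 Mb and 117.8 Mb.

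Among the simple pairs the median width was 26800 bp in control against 30000 bp in E1/E2-KO liver. The E1/E2-KO region was the wider one in 3856 pairs (54.5%) and the narrower one in 2996 (42.3%). Which list had the wider region depended on the list used to form width classes. In classes by control width, the median ratio of E1/E2-KO to control width was 1.90 under 10 kb and 0.96 at 30 to 50 kb. In classes by E1/E2-KO width it was 0.634 under 10 kb and 1.16 at 30 to 50 kb. In classes by the mean of both widths it stayed between 1 and 1.09, so the pairs show no strong dependence on width. Of the 14156 edges 44.8% lay within 2400 bp of each other, which is the gap that the region caller bridges.

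Among the most fragmented and most joined regions, some overlapped protein-coding genes and others did not. The control region at chr9:59899601-60488800, over Thsd4 and Lrrc49, was covered by 8 E1/E2-KO regions, which held 88.2% of its bases. The widest control region, chr9:60728801-61656400, spans 927600 bp with Tle3 and Gm10655, and 7 E1/E2-KO regions covered 90.4% of it. Tle3, a corepressor of the Groucho family, lay in the part that was no longer covered. The region of Klf4, a transcription factor of epithelial and stem cells, at chr4:55446401-55840800, was also in 7 pieces and kept 76.4% of its bases. In the opposite direction, the E1/E2-KO region chr16:6712401-6980000 within Rbfox1, a neuronal splicing factor, joined 8 control regions.

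Lost and gained regions were usually not shifted copies of a neighbour. The median lost region was 32 kb from the nearest E1/E2-KO region, 1065 (23.3%) were within 10 kb and 981 (21.5%) more than 100 kb away. The median gained region was 41.2 kb from the nearest control region. The widest lost region, chr2:169500401-169694000 with 193600 bp, overlaps Tshz2, a zinc finger transcription factor. The next 3, which overlap no protein-coding gene, are at chr1:196022801-196172800, chr8:33162801-33302400 and chr13:28716401-28854400. The fifth, chr1:36604401-36719200, overlaps Sema4c and Fam178b. The widest gained regions were shorter, with 91200 bp over Tmem90b on chr2:149688001-149779200 and 88000 bp over Tdrd1, Vwa2 and Afap1l2 on chr19:56923601-57011600. Lrig1, a negative regulator of growth factor receptors, Elavl2, a neuronal RNA-binding protein, and Gcnt2, a glycosyltransferase, lay in the other 3 widest gained regions.

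Regions with a gene start were lost less often than regions without one. Of the control regions with at least 1 protein-coding start 13.7% were lost, against 30.4% of regions that overlap a gene without its start and 33.1% of intergenic regions. Regions with a start are wider, but their lower loss was also seen within width classes, whereas the order of the other 2 kinds was not the same in all classes. At 10 to 20 kb 33.7% of regions with a start were lost (interval 30.8 to 36.6%), against 46.5% of other genic regions and 46.7% of intergenic ones. At 30 to 50 kb the shares were 6.57%, 16.0% and 12.9%.

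Accordingly a start was present in 35.4% of kept control regions, 15.6% of lost and 14.3% of gained regions. Intergenic regions made up 41.0%, 56.0% and 54.3%. Gained regions were poorest in starts, with 6.39 per Mb, against 9.18 per Mb in lost and 11.8 per Mb in kept control regions and 8.61 per Mb over the autosomes. Their midpoints also lay farther from starts, with a median of 102.5 kb from the midpoint to the nearest start, against 57.5 kb for lost and 38.3 kb for kept control regions. The share of gained bases inside genes was not low, however, with 38.6% against 35.7% of lost bases.

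Base composition followed the same order. GC content was 45.2% in bases covered in both lists, 43.6% in control bases that left the regions, and 42.3% in E1/E2-KO bases that entered them, against 41.9% over the autosomes and 40.8% outside both lists. CpG density was 10.9, 9.43 and 8.39 per kb in the 3 sets and 8.51 per kb over the autosomes. The median gained region had 6.90 CpG per kb, the median lost region 8.41 and the median kept control region 10.

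Every autosome lost and gained regions, with moderate differences between chromosomes. The lost share ran from 19.6% on chromosome 9 to 32.7% on chromosome 10, and the gained share from 12.9% on chromosome 19 to 25.8% on chromosome 10. Net length was lower by the most on chromosome 5, with 40.8 Mb in control liver and 37.3 Mb in E1/E2-KO liver, followed by chromosome 19, with 20.3 and 17.9 Mb. It was higher by the most on chromosome 3, with 29.8 and 32.2 Mb.

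For genes, coverage is the percent of the gene span inside regions, and a difference of 25 percentage points or more was counted. Of 21281 protein-coding autosomal genes 5936 were covered to at least 50% in control against 5761 in E1/E2-KO liver, with 4731 in both. Coverage was lower in E1/E2-KO liver by 25 points or more for 1619 genes (7.61% of all) and higher for 1402 (6.59%). Complete coverage in control but none in E1/E2-KO liver was found for 457 genes, and the opposite for 306.

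The 10 longest genes with complete coverage in control but none in E1/E2-KO liver were Tle3, Me2, Il7, 5031414D18Rik, Nckap5l, Tmem63a, Sh3tc1, Oit1, Ccdc112 and Micall2. Me2 encodes a mitochondrial malic enzyme and Il7 the lymphocyte growth factor interleukin 7. In males, Me2 and Tmem63a were likewise covered to 100% in control but to 0% in E1/E2-KO liver, and Il7 was covered to 100% and 32.0%. Ccdc112 was covered to 100% in both male lists. Tle3 went the other way in males, with 38.8% in control against 84.8% in E1/E2-KO liver.

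The 10 longest genes at 0% in control against 100% in E1/E2-KO liver were Elovl2, Vwa2, Rassf6, Zyg11a, Bcar1, Mlxipl, Uroc1, Vwce, Ttc21a and Cyp3a13. Elovl2 elongates polyunsaturated fatty acids, Mlxipl (ChREBP) is the carbohydrate-responsive activator of lipogenic genes, Uroc1 is the urocanase of histidine breakdown, and Cyp3a13 is a cytochrome P450. The male lists gave nearly the same picture for the 10 genes. In control males these genes were at 2.47% (Elovl2) or 0%, and in E1/E2-KO males at 97.6% (Bcar1) or 100%, except for Ttc21a, which had 85.1% and 99.6%. All of them but Vwa2 had an H3K27ac peak within 1 kb of the start in both female genotypes. Of the genes with the opposite pattern, Tle3, Me2, Il7, 5031414D18Rik, Nckap5l, Tmem63a and Sh3tc1 did too, but not Oit1, Ccdc112 and Micall2. Control females had such a peak for 55.1% of all genes higher by 25 points or more and 49.2% of those lower. Over all gene starts the share was 51.7%, so such peaks did not set the genes with higher coverage apart.

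Male and female lists come from separate animals, so the male lists were also used as a second reading of the gene calls. Of the 1619 genes with lower coverage in E1/E2-KO females, 618 (38.2%) were lower by 25 points or more in E1/E2-KO males, against 6.30% of all genes. Among the 6457 genes with at least 25% coverage in control livers of both sexes, 45.8% of those lower in females were lower in males, against 4.82% of the others. Of the 1402 genes with higher coverage, 740 (52.8%) were higher in males too, against 10.3% of all genes. Among the 15169 genes with at most 75% in both controls, the shares were 69.3% and 8.66%. Opposite differences in males were found for 170 (10.5%) and 89 (6.35%) of these genes. Among genes of at least 5 kb with complete coverage in control females but none in E1/E2-KO females, 46 of 175 showed exactly the same in males, and for the opposite pattern 64 of 116 did.

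The same comparison was made for regions. Kept control regions overlapped a control male region in 94.4% and an E1/E2-KO male region in 94.0%. Lost regions overlapped a control male region in 76.0% but an E1/E2-KO male region in 47.0%. For gained regions the order was reversed, with 41.0% in control against 62.1% in E1/E2-KO males. The same difference between genotypes was seen in males for a minority. Of the lost regions 1731 (37.9%) were in the control male list alone, 1744 (38.1%) in both male lists, 404 (8.84%) in the E1/E2-KO male list alone and 693 (15.2%) in neither. Of the gained regions 34.0% were in the E1/E2-KO male list alone, 28.1% in both, 13.0% in the control male list alone and 24.9% in neither.

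Markers of hepatocytes, the cells in which Ezh2 was deleted, were a group with more H3K27me3 coverage in E1/E2-KO liver. Of 32 markers 11 had higher coverage by 25 points or more and none had lower coverage. This is 34.4%, against 6.59% of all genes, or 36.7% against 8.63% among genes with at most 75% coverage in control, and the median difference was 0 in the list as in all genes. In control liver 28 of the 32 markers were at 0%. The same 11 genes were also higher in males, where 19 markers were (59.4%, against 10.3% of all genes).

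Among the hepatocyte transcription factors, the coverage of Hnf4a was 0% in control against 70.95% in E1/E2-KO liver. That of Foxa3 was 0% and 100%, and that of Onecut1 3.85% and 100%. Prox1 had 0% and 50.2%. These factors bind the regulatory sequences of most liver genes. Foxa1 and Foxa2, pioneer factors of the same network, were covered to 100% in both lists, while Cebpa and Nr1h4, the bile acid receptor FXR, were at 0% in both.

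Among secreted proteins and enzymes, coverage was 0% in control against 100% in E1/E2-KO liver for G6pc, the glucose-6-phosphatase of glucose release, for the fibrinogen chain Fgb and for the apolipoprotein Apoc3. Tat, the tyrosine aminotransferase, was also among the 11 genes. The heme-binding protein Hpx had 0% and 54.96%, and Apoa1 0% and 50.3%. Alb, the albumin gene, had 0% and 2.73%. Of the other markers 16 were at 0% in both lists, among them Apob, Ttr and the urea cycle enzymes Cps1 and Ass1.

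The starts of most of these genes carried H3K27ac in both genotypes. An H3K27ac peak lay within 1 kb of the start for 30 of 32 hepatocyte markers in control against 31 in E1/E2-KO liver, the added one being Fgb. G6pc, Foxa3, Apoc3, Hnf4a and Onecut1 had such a peak in both genotypes although they were covered by H3K27me3 regions in E1/E2-KO liver. These peak counts also served as the check of the tissue label.

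**Figure D2:**
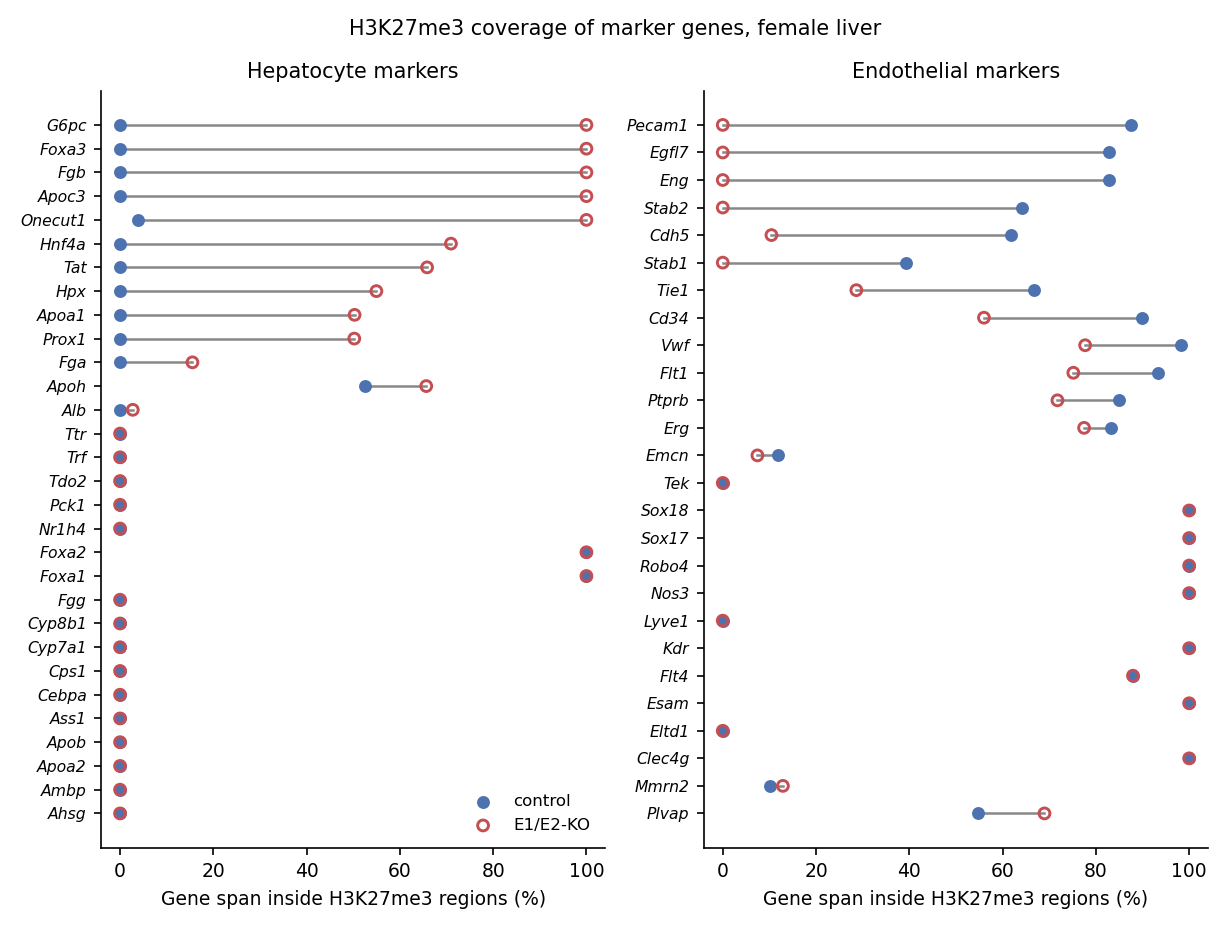
Percent of each gene span inside H3K27me3 regions of control (filled blue) and E1/E2-KO (open red) female liver, for 30 of the 32 hepatocyte markers and for 26 endothelial markers, with a line joining both values. There is 1 pooled list for each genotype, so no error bars are shown. Differences of 25 points or more all go to the right for hepatocyte markers and to the left for endothelial markers.

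Markers of endothelial cells, which keep Ezh2, differed in the opposite direction. Of 26 markers 8 had lower coverage by 25 points or more in E1/E2-KO liver and none had higher coverage, which is 30.8% against 7.61% of all genes. Many genes without coverage in control cannot be lower, and among genes with at least 25% in control the shares were 38.1% of 21 endothelial markers and 23.4% of all 6914 genes. The median difference was 2.21 points, against 0 over all genes. Coverage of at least 50% was found for 20 markers in control against 14 in E1/E2-KO liver. Of the 8 genes, 6 were also lower in males. At a threshold of 50 points 5 markers were lower.

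Coverage of Pecam1, the adhesion molecule CD31, was 87.6% in control against 0% in E1/E2-KO liver. Eng, a TGF-beta coreceptor, had 82.8% and 0%, and the sinusoidal scavenger receptors Stab2 and Stab1 had 64.2% and 39.2% in control against 0% in E1/E2-KO liver. Cdh5, the cadherin of endothelial junctions, had 61.8% and 10.4%, and Cd34 had 89.8% and 56.0%. In males these 6 genes were lower too, with Pecam1, Stab1 and Stab2 at 100%, 100% and 87.3% in control against 0% in E1/E2-KO liver. The remaining 2 genes had opposite directions in the sexes. Egfl7 had 82.9% and 0% in females and 70.7% and 100% in males, and the receptor kinase Tie1 had 66.8% and 28.6% in females and 0% and 83.8% in males.

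Other endothelial regulators kept their regions. Coverage was 100% in both lists for the VEGF receptor Kdr, for Nos3, Esam, Robo4 and Clec4g, and for the transcription factors Sox17 and Sox18. H3K27ac peaks lay within 1 kb of the start of 13 of the 26 markers in control against 17 in E1/E2-KO liver. Over all gene starts the shares were 51.7% and 52.3%, with 403 starts having a peak in control only and 531 in E1/E2-KO liver only. Cdh5, Eng, Stab2, Clec4g and Tek had a peak in E1/E2-KO liver only, and Sox17 had one in control liver only. The part of cell composition in these differences was not tested.

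**Figure D3:**
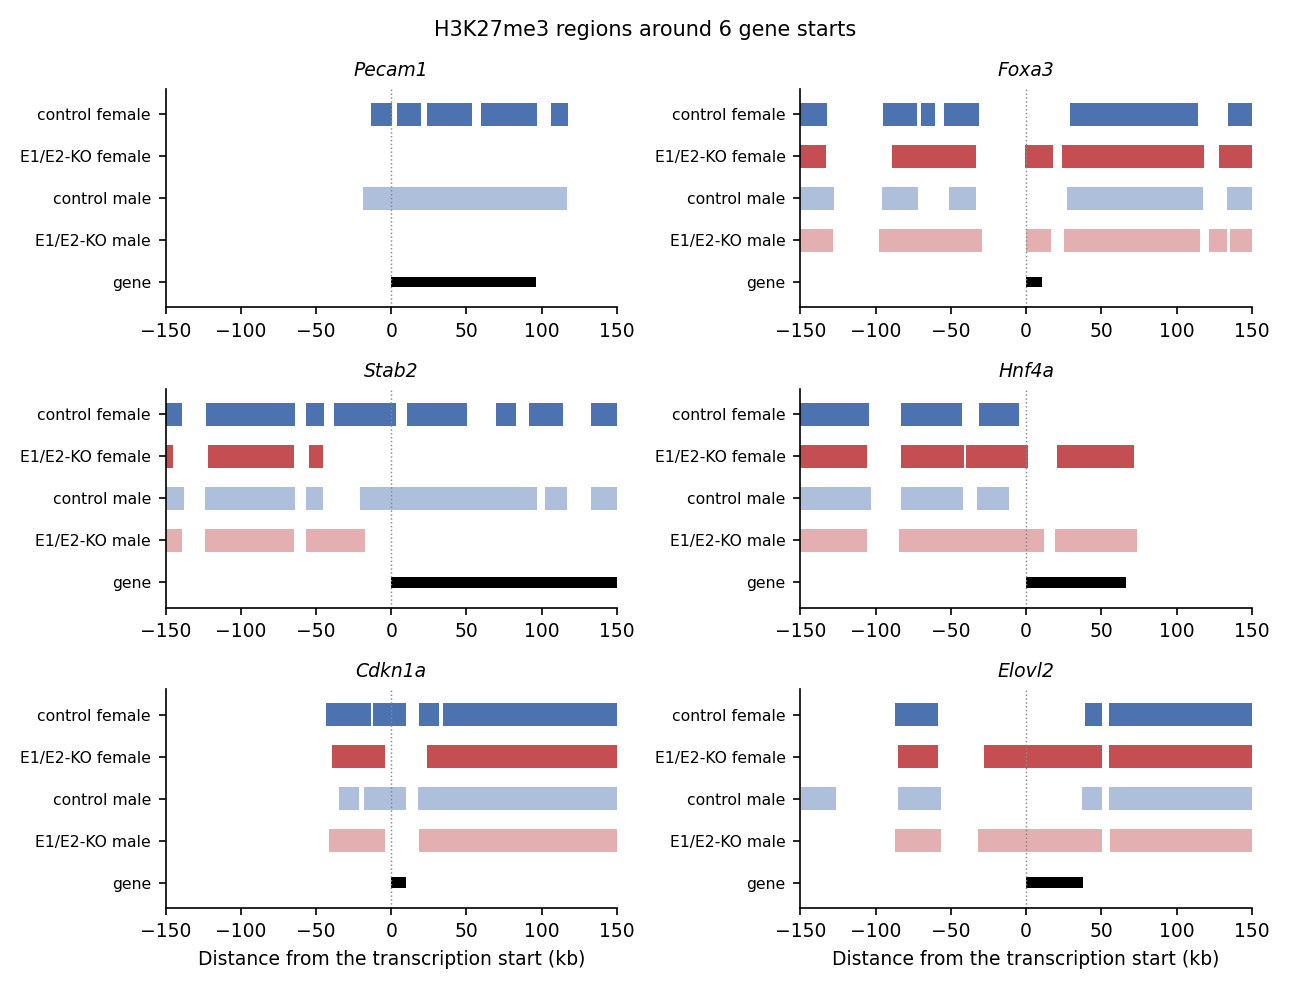
H3K27me3 regions within 150 kb of 6 gene starts in control female, E1/E2-KO female, control male and E1/E2-KO male liver, with distance from the start in kb on the horizontal axis, transcription to the right, and the gene span in black (regions and Stab2 are cut at the edge). Regions over Pecam1, Stab2 and Cdkn1a are seen in both control lists and not in the E1/E2-KO lists, while regions over Foxa3, Hnf4a and Elovl2 are seen in both E1/E2-KO lists. Genes with opposite directions in the sexes, such as Tle3, Egfl7 and Tie1, are not drawn.

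The maps show 2 forms of difference. At Pecam1 the 5 control regions, which lay between -13.7 kb and 118 kb from the start, had no counterpart in E1/E2-KO liver, while in control males 1 region covered the same stretch. At Elovl2 a control region began 39.4 kb behind the start and ended at 50.2 kb. In E1/E2-KO liver that region ended at the same place but began at -27.8 kb, so it extended over the gene. At Hnf4a a region before the start ended at -4.54 kb in control liver and at 1.06 kb in E1/E2-KO liver, and a separate region covered the gene from 20.3 kb on.

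For the other nonparenchymal cells the counts were smaller, and some genes did not have the same direction in males. Of 18 macrophage markers 3 were lower and 1 was higher, and 23.1% of the 13 with at least 25% in control were lower, close to the 23.4% of all such genes. Csf1r, the receptor for the macrophage growth factor, was covered to 87.2% and 4.42% in females but to 90.2% and 98.6% in males. Ccr2, a monocyte chemokine receptor, had 76.8% and 0% in females and 100% in both male lists. Cd163, a scavenger receptor, had 85.5% and 54.1%. Of 18 lymphocyte markers 1 was lower (Lck, a T cell kinase, 74.7% and 0%), or 7.69% of the 13 with at least 25% in control.

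Of 18 markers of stellate cells and fibroblasts 4 were lower and none was higher. The lower ones were 26.7% of the 15 markers with at least 25% in control, close to the 23.4% of all such genes. Acta2, the smooth muscle actin of activated stellate cells, was covered to 100% in control against 26.9% in E1/E2-KO liver, and Rgs5 to 100% and 36.6%. Dcn had 27.4% and 0%. The collagen gene Col3a1 had 74.5% and 0% in females and 18.9% and 51.8% in males. Of 10 cholangiocyte markers 2 were higher, among them Epcam (70.6% and 100%). These were 50% of the 4 markers with at most 75% in control, against 8.63% of all such genes.

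Most classical polycomb targets kept their coverage. All 39 Hox genes were covered to 100% in both lists. Of 110 developmental transcription factors 100 were covered to at least 50% in control against 100 in E1/E2-KO liver, with 3 lower (2.73%) and 6 higher (5.45%). Most were already covered in control, and of the 13 factors with at most 75% in control 46.2% were higher, against 8.63% of all such genes. At a threshold of 50 points 2 factors were higher. None of the 3 lower factors was also lower in males, and 2 of the 6 higher ones were also higher there. Sox12 and Tbx10 had 100% in control against 0% in E1/E2-KO liver, and Ascl3 had 98.9% and 0%. Nkx6-3 and Atoh8 had 0% and 2.14% in control against 100% in E1/E2-KO liver, and Gata6 had 9.34% and 44.4%. H3K27ac peaks at these starts were more numerous in E1/E2-KO liver, with 10 against 3 Hox genes and 33 against 19 developmental factors, although the regions were still called there. Over all genes the numbers were 11006 in control against 11134 in E1/E2-KO liver.

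Among 49 Wnt, Fgf and Bmp ligands, 5 were higher and 1 was lower. The higher ones were 31.2% of the 16 ligands with at most 75% in control (8.63% of all such genes), and the lower one was 2.38% of the 42 with at least 25% (23.4% of all such genes). Bmp10 and Fgf22 had 0% in control against 100% in E1/E2-KO liver, and Bmp7 had 59.6% and 34.2%. Of 46 keratins 2 were higher, namely Krt8 (0% and 94.0%) and Krt18 (0% and 100%), the pair that hepatocytes express, and 2 were lower, Krt10 and Krt40. Of 24 protocadherin genes 5 (20.8%) were lower, namely Pcdha3 and Pcdhb1 to Pcdhb4, and 5 between Pcdhb16 and Pcdhb21 were higher, against 7.61% and 6.59% of all genes. The lower ones were 71.4% of the 7 with at least 25% in control (23.4% of all such genes). None of the 5 lower genes was also lower in males, and 2 of the 5 higher ones were also higher there. Olfactory receptors (27 lower and 23 higher of 1081) and vomeronasal receptors (0 and 2 of 321) had shares under those of all genes, and most of them were at 0% in both lists. Of 41 beta defensins none differed by 25 points.

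Among genes of liver function, 5 of 94 cytochromes P450 (5.32%) were lower and 6 (6.38%) higher, against 7.61% and 6.59% of all genes. Of the 19 with at least 25% in control 26.3% were lower, against 23.4% of all such genes. Of the 79 with at most 75% in control 7.59% were higher, against 8.63% of all such genes. In males 11.7% were lower and 11.7% higher, against 6.30% and 10.3% of all genes. Cyp2b19 was covered to 100% in control against 0% in E1/E2-KO liver, and Cyp2b10, the barbiturate-induced enzyme, to 37.2% and 0%. Cyp1a1, induced by dioxin-like compounds, and Cyp17a1, a steroid hydroxylase, had 0% and 100%, also in males. Serpins were higher in 8 (13.6%) and lower in 4 of 59 genes, the lower ones being 50% of the 8 with at least 25% in control. Serping1, the C1 inhibitor, had 0% and 100%. Of 37 sulfotransferases and UDP-glucuronosyltransferases 3 were lower and none was higher, with Sult1c1 at 82.1% and 0%. These were 50% of the 6 with at least 25% in control, against 23.4% of all such genes. Of 75 ribosomal protein genes, which every cell uses, none was lower and 5 (6.67%) were higher, close to the 6.59% of all genes. In males 13 (17.3%) were higher, against 10.3% of all genes, and 4 of the 5 were among them.

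Of 56 chemokine and receptor genes 9 were lower (16.1%, or 28.1% of those with at least 25% in control, against 23.4% of all such genes) and 2 higher, with Ccl4, Ccr3 and Cxcl3 at 100% and 0%, Ccl5 at 0% and 100% and Cxcl12 at 17.5% and 100%. Collagens were lower in 5 (15.6% of the 32 with at least 25% in control) and higher in 3 of 41 genes, and Col4a1, a basement membrane chain, had 82.5% and 3.15%. Among 207 liver fibrosis genes that the study had listed, 20 (9.66%) were lower and 22 (10.6%) higher, against 7.61% and 6.59% of all genes. Among genes with at least 25% coverage in control, 24.1% of the list and 23.4% of all genes were lower. Among genes with at most 75%, 15.5% of the 142 on the list and 8.63% of all were higher. The study took this list from a database search for the term, and the 207 genes are those matched to autosomal protein-coding genes. Tgfb1 and Lgals1 had 100% and 0%, Il33 had 56.2% and 0%, while Plg, plasminogen, had 0% and 88.9% and Vegfa 13.8% and 99.6%. In males 17 genes of this list were lower (8.21%, against 6.30% of all genes) and 42 higher (20.3%, against 10.3%).

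Of 7 CDK inhibitors only Cdkn1a (p21) differed by 25 points or more. This is 25% of the 4 with at least 25% in control, close to the 23.4% of all such genes. Cdkn1a was covered to 100% in control against 0% in E1/E2-KO liver in both sexes. Of the others 3 were at 100% and 3 at 0% in both female lists. Among 10 PRC2 genes Ezh2, Eed and Suz12 were at 0% in both lists. Ezh1, the gene deleted in all cells, had 0% in control against 53.1% in E1/E2-KO females, and 1.63% and 53.1% in males. Phf19, an accessory subunit, had 37.2% and 0% in females and 35.3% and 44.7% in males. Of 32 imprinted genes 3 were lower (16.7% of the 18 with at least 25% in control, against 23.4% of all such genes) and 1 was higher, with Rtl1 at 94.6% and 26.4%, Kcnq1 at 51.0% and 15.9% and Slc22a18 at 36.1% and 100%. Major urinary proteins (1 lower of 21), Klr receptors of natural killer cells (4 lower and 1 higher of 26) and potassium channels (6 lower and 7 higher of 91) completed the lists. Over all genes 7.61% were lower and 6.59% higher. Among genes with at least 25% in control, 8.22% of the 73 potassium channels and 66.7% of the 6 Klr receptors were lower. Of the 27 potassium channels with at most 75% in control 25.9% were higher, against 8.63% of all such genes. The same difference was seen in males for 2 of the 6 lower and 1 of the 7 higher channels. It was seen there for 1 of the 4 lower Klr receptors and not for the higher one.

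**Figure D4:**
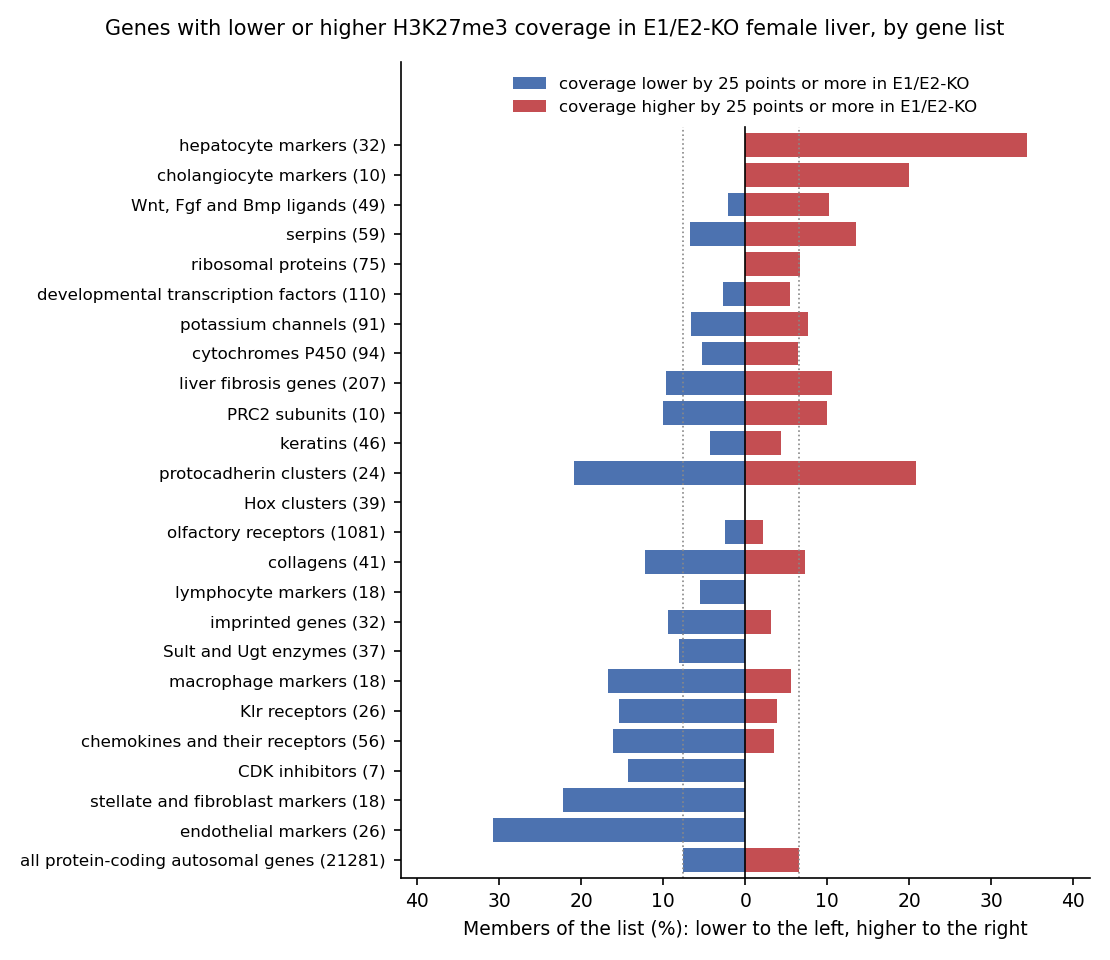
Percent of the members of each gene list whose H3K27me3 coverage was lower (blue, to the left) or higher (red, to the right) by 25 percentage points or more in E1/E2-KO than in control female liver, with the number of members in brackets. Dotted lines mark the shares over all 21281 genes, 7.61% and 6.59%; lists with no bar had no such member, and vomeronasal receptors, beta defensins and major urinary proteins are not drawn. Hepatocyte markers reach 34.4% on the higher side and endothelial markers 30.8% on the lower side.

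Turning from gene spans to gene starts, 7190 starts were inside control regions and 6957 inside E1/E2-KO regions, with 5760 in both. Starts inside control regions only numbered 1430 (6.72% of all 21281 starts) and those inside E1/E2-KO regions only 1197 (5.62%). A start was called CpG-rich where the 500 bases on each side had a GC content of at least 55% and an observed over expected CpG ratio of at least 0.6. CpG content alone made little difference, with 19.3% of CpG-rich and 20.2% of other starts leaving the control regions. Among starts in E1/E2-KO regions 18.9% of the CpG-rich (interval 17.5 to 20.5%) and 16.2% of the others (15.2 to 17.3%) had entered.

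H3K27ac in control liver and CpG content together separated them. Of the CpG-rich starts without a control H3K27ac peak within 1 kb, 41 of 1134 left the regions (3.62%, interval 2.68 to 4.87%), and 14 of 1107 entered (1.26%). Of the other starts without a peak 620 of 3726 left (16.6%). Where control liver had an H3K27ac peak, 446 of 1389 CpG-rich starts (32.1%) and 323 of 941 other starts (34.3%) left. Entering, as a share of starts in E1/E2-KO regions, followed the same order, with 32.9% and 34.7% in the classes with a peak. This share depends on how many starts were already covered in control liver. Of the 1484 CpG-rich starts without a peak 1134 were inside control regions, against 1389 of 6906 CpG-rich starts with a peak. Fewer starts of the first class could therefore enter, and entering among starts outside control regions was not compared by class. The starts that both lists covered were thus mainly those without acetylation, 27.1% of them having a control peak, against 53.8% of the starts in control regions only, 66.0% of those in E1/E2-KO regions only and 61.2% of those in neither. Of the genes whose sequence is given above, Tle3 and Elovl2 belong to the CpG-rich starts with a control peak, and Hoxa3 and Pax5 to the other starts without one.

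**Figure D5:**
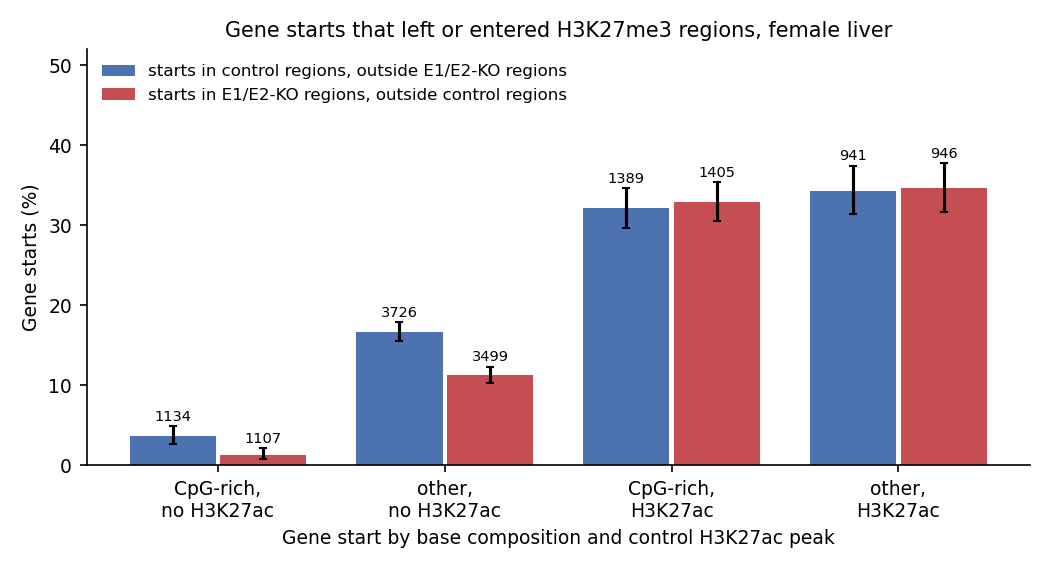
Percent of protein-coding gene starts in control regions that were outside E1/E2-KO regions (blue) and of starts in E1/E2-KO regions that were outside control regions (red), for starts that are CpG-rich or not, with or without an H3K27ac peak within 1 kb in control female liver. Error bars are 95% Wilson intervals and the numbers are the starts in each class. CpG-rich starts without a peak have the lowest shares, 3.62% and 1.26%.

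The density of active marks differed between region sets. Control H3K27ac peaks numbered 12.6 per Mb in kept, 18.9 in lost and 21.3 in gained regions, against 19.8 per Mb over the autosomes. In E1/E2-KO liver they were 14.9, 21.3 and 21.5 per Mb, against 20.4. Kept and lost regions therefore had 1.18 and 1.13 times as many peaks in E1/E2-KO as in control liver, while the ratio was 1.01 in gained regions and 1.03 over the autosomes. For H3K4me1, a mark of enhancers, the ratios were 1.13 in kept, 1.09 in lost and 0.836 in gained regions, against 0.94 over the autosomes. For the H3K4me1 list of E1/E2-KO females the labels used here give 3 livers and for the other lists 4, while the methods describe 4 for every mark.

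The order of loss and gain was not the same under all settings. When each list was restricted to the same number of its widest regions, the gained share of regions (24.7%) exceeded the lost share (22.0%). Genes with higher coverage (1593) then outnumbered those with lower coverage (1379). This setting kept all 14554 E1/E2-KO regions and left out the narrowest control regions, so list length and region width changed together. When regions under 10 kb were left out of both lists, more were still lost (25.7%) than gained (20.9%). Read depth behind the lists is unknown.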

How the data were processed

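ChIP-seq regions of frozen liver chromatin, made with antibody ab6002 against H3K27me3, were used as deposited. According to the submitters' notes and the methods, the authors aligned reads to mm9 (NCBIM37) with Bowtie2 2.3.2, combined the reads of the 4 livers of a group, and called H3K27me3 regions with SICER 1.1, using windows of 400 bp and a gap of 2400 bp. MACS2 2.1.1 gave the peaks of the other 2 marks. The deposited unit is the position of each called region (chromosome, start and end, 3 columns). The lists used hold no score or read count, so depth and its precision are unknown. All columns of per-sample values were either used or absent (0 left out).

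One base was added to each SICER end, since the next window starts there. Overlap needed 1 bp. Gene coverage is the percent of the span of a GENCODE M1 gene inside regions. The analysis used Python 3.11.15, numpy 2.4.6, pysam 0.24.0 and matplotlib 3.10.9. Scripts were tested on simulated data. Groups followed the labels, and with 1 pooled list for each group no statistical test was possible. The genes named first are the 10 longest of at least 5 kb with the largest difference in each direction, and the other genes come from gene lists. The members and lists were chosen with earlier results of these data known. Alternatives changed the overlap rule, merging, minimum width, list length, gene set, gene ends, threshold and chromosomes. Chromosome X was left out of the comparison and is described separately. The values of some genes counted in the lists are not reported here.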

Additional observations from a re-analysis of the deposited data

Results flagged for a closer look

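For 4 of the named genes, H3K27me3 coverage differed by 25 percentage points or more between genotypes in opposite directions in females and males. With 1 pooled list for each sex and genotype, the difference between the sexes was not tested. Tle3 was 100% in control against 0% in E1/E2-KO females, a difference of -100 points, and 38.8% and 84.8% in males. Egfl7 was 82.9% and 0% in females (-82.9 points), and 70.7% and 100% in males (29.3 points). Col3a1 was 74.5% and 0% in females (-74.5 points), and 18.9% and 51.8% in males (32.9 points). Tie1 was 66.8% and 28.6% in females (-38.2 points), and 0% and 83.8% in males (83.8 points).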

How the results depend on the processing

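The share of lost regions was 32.8% when overlap had to reach 50% of a region's length, 20.6% when a region within 10 kb counted as overlap, 25.7% for regions of at least 10 kb, 22.0% for equal numbers of the widest regions and 29.1% with chromosome X. The gained share under the same settings was 28.5%, 16.0%, 20.9%, 24.7% and 17.7%, and 20.6% after merging regions within 10 kb. At a threshold of 50 points, 970 genes were lower and 750 higher. With all gene biotypes 2492 of 31948 genes were lower and 2042 higher, against 1619 and 1402 of the 21281 protein-coding genes. Split or joined control regions numbered 3811 of 17188 as reported, and 2354 of 11604 after merging regions within 10 kb. Control bases outside E1/E2-KO regions stayed between 24.3% and 25.7%, and the opposite share between 23.4% and 27.9%. None of the 20 genes with the largest differences reversed under the settings tried, and other named genes were not rerun. These 20 genes were picked for differences of 100 points, which such settings could hardly reverse, so this is no check of the calls. The counts of 9 gene lists (6 cell types, Hox, developmental factors and fibrosis) were rerun. Several were 0 under every setting, such as lower and higher Hox genes and lower hepatocyte markers, and could hardly move. With these included, 66 counts stayed within 1.5 times and 6 moved further. At 50 points these were lower endothelial markers (5 against 8), higher developmental factors (2 against 6), higher cholangiocyte markers (1 against 2) and lower fibrosis genes (13 against 20). Higher macrophage markers numbered 2 against 1 with genes extended by 3 kb, and higher lymphocyte markers 2 against 0 with equal numbers of regions. Width classes by E1/E2-KO or mean width, and reference genes limited to those that could differ, were chosen after seeing the data. No paired analysis was possible because the livers of each group were pooled before regions were called. For the same reason no liver could be left out. A region under the caller's threshold and a region without the mark cannot be told apart, and the depth of the pooled reads is unknown.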

Other observations

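Chromosome X, where the inactive copy of females is known to carry H3K27me3 along its length, differed from the autosomes in females in the shares of regions lost and gained. Control females had 2608 regions there with 97.7 Mb, or 58.6% of the chromosome, and E1/E2-KO females had 1573 regions with 73.6 Mb, or 44.2%. Lost regions numbered 1186 (45.5%, interval 43.6 to 47.4%), against 26.6% on autosomes. Only 3 of the E1/E2-KO regions (0.191%) were gained, against 19.6% on autosomes. In bases, however, the loss was like that of the autosomes, with 24.9 Mb or 25.5% of the X-linked control bases outside the E1/E2-KO list, against 25.7% on autosomes. The opposite share was 0.782 Mb or 1.06%, against 26.02% on autosomes. The median width of the regions was 20400 bp and 27600 bp. In males, which have no inactive X, 50 regions were called in control against 33 in E1/E2-KO liver, with 0.575% and 0.329% of the chromosome. The difference between chromosome X and the autosomes has no replicate check.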
